A study of Mus musculus with 10 samples.

Results

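The S100 and annexin genes examined here were a list of 10 mouse symbols, S100a4, S100a6, S100a8, S100a9, S100a10, S100a11, Anxa1, Anxa2, Anxa3 and Anxa5, chosen by name, of which 9 were found among the 13091 genes listed in each of 4 expression tables. S100a10 had no row in the tables and was not analysed here. The RNA came from neutrophils that had been differentiated in culture from clonal, HoxB8-immortalized bone marrow progenitors of 129-SVEV mice. HoxB8 fused to an estrogen receptor domain holds such progenitors in a dividing state while estrogen is present. In the study they matured after estrogen was withdrawn and IL-3 and granulocyte colony-stimulating factor were added. The libraries comprised 2 Vim+/+ clones and 3 Vim-/- clones, the latter labelled as a vimentin knockdown although the study's methods derive them from knockout mice. Each clone was sequenced unstimulated and after 1 hour with 25 ng/mL of LPS, a bacterial cell wall component that activates neutrophils, giving 10 libraries in 4 groups (2 Vim+/+ unstimulated, 2 Vim+/+ with LPS, 3 Vim-/- unstimulated and 3 Vim-/- with LPS). Every library came from a single-cell-derived, immortalized line, and all lines carried the HoxB8 transgene.

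The value used for each gene was the authors' mean normalized count, which averages the counts of the libraries after scaling for sequencing depth. It is a single number per gene, identical in all 4 tables and therefore taken as pooled over both genotypes and both treatments, although the tables do not name the libraries behind it. Of the 10 libraries, 6 came from Vim-/- clones and 5 were treated with LPS. The spread between clones, the depth of each library and any error on a level are therefore unknown, and no level was tested against another. Differences between genotypes and with LPS were not analysed here. Vim itself, the targeted gene, had a pooled mean of 39926, a value that does not check the genotype labels because both genotypes enter it. Since long genes collect more reads, levels per kilobase, the mean normalized count divided by the length of all exons of the gene, were used to compare genes, which could be done for 12046 genes. Ranks by undivided count and levels by other lengths (the longest transcript or the coding sequence) are named as such where given.

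S100 proteins are small calcium-binding proteins that usually work as dimers. S100A8 and S100A9 form calprotectin, an abundant cytosolic complex of neutrophils that sequesters zinc and manganese from microbes and acts as an alarm signal when released. Annexins bind membrane phospholipids in the presence of calcium, and several of them hold an S100 partner through their N-terminal tail. Annexin A1 is stored in neutrophils and is known to limit their recruitment by binding formyl peptide receptors.

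S100a9 had the highest level per kilobase of all 12046 genes and S100a8 the next highest. They lie beside each other on chromosome 3 (GRCm38) and are transcribed toward each other, S100a8 on the plus strand from 90668978 to 90670035 and S100a9 on the minus strand from 90692632 to 90695721, with 22.6 kb between the gene models. The sequences around their starts are shown because these are the 2 genes at the top of the order. Each stretch runs 5′ to 3′ on the gene's own strand from 200 bases before the RefSeq start to 30 bases after it. Capitals mark the letters TATAAA, matched as letters only. These are the core letters of the TATA box, an element upstream of a start at which the transcription machinery can assemble.

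S100a8, chr3:90668871-90669100, plus strand: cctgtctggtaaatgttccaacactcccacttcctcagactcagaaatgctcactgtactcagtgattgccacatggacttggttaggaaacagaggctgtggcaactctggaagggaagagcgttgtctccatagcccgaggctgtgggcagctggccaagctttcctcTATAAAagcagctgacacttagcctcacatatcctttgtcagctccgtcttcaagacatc
S100a9, chr3:90695692-90695921, minus strand: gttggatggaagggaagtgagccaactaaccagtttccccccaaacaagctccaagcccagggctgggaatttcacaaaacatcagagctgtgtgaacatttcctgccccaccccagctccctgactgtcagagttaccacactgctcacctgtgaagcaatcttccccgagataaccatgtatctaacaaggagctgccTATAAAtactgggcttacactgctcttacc

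In S100a8 the match begins 30 bases before the RefSeq start. In S100a9 it begins at base 1 of the annotated transcript, so that the RefSeq start and the TATA letters coincide there. The S100a9 match therefore does not lie upstream of the start used. The GENCODE model of S100a8 begins upstream of the RefSeq start, and part of the printed stretch is exon in that model. Of the 9 genes, 8 had a RefSeq promoter window of 300 bases (250 before the start and 50 after it), and 5 of these 8 windows held TATAAA on either strand, those of S100a4, S100a8, S100a9, Anxa1 and Anxa2. Counted from the RefSeq start, TATAAA began at -31 in S100a4, -32 in Anxa1 and -17 in Anxa2. Only in S100a4, S100a8 and Anxa1 did it begin 30 to 32 bases before the start, whereas the count takes a match anywhere in a window. The same letters were found in 7.21% of the 12488 windows of genes in the tables and in 13.6% of all 32851 windows. The core TTGCNNAA of C/EBP factors, which drive granulocyte genes, was present in 2 of the 8 windows, S100a9 and Anxa1, against 9.08% of the windows of genes in the tables. GAGGAA, the core bound by the myeloid factor PU.1, was present in 4 of the 8 windows, S100a4, S100a8, S100a11 and Anxa1, against 27.8%. The 3 motifs were searched on both strands and did not overlap in these 8 windows. The PU.1 core began at base 20 of the annotated transcript in S100a4 and at -153 in S100a11. Among the other S100 and annexin genes, TATAAA was found in a window of S100a3, at -52. TTGCNNAA was found in a window of Anxa4, and GAGGAA in windows of S100a3, Anxa9 and Anxa11. These are matches of letters only, and no test of motif against level was run.

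The mean normalized count of S100a9, which encodes the larger calprotectin subunit, was 1290830, the highest of all 13091 genes and 2.33% of the sum over genes. That of S100a8, which encodes the smaller subunit, was 938175, ranking the third behind Ngp, the neutrophilic granule protein gene, at 1107492. Per kilobase of exon the levels were 2472855 for S100a9 and 1351838 for S100a8, and Ngp followed at 906294. The pair accounted for 4.02% of all mean normalized counts and for 16.8% of the sum of all levels per kilobase. The 7 other genes of the list together added 0.594% of the counts. The level of S100a8 was 0.547 times that of S100a9 per kilobase of exon, and 0.923 times when only the coding length was used. Both genes have 2 annotated transcripts, and the second of S100a8, which retains an intron, lengthens its exon union to 694 bases against 498 for its longest transcript.

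**Figure D1:**
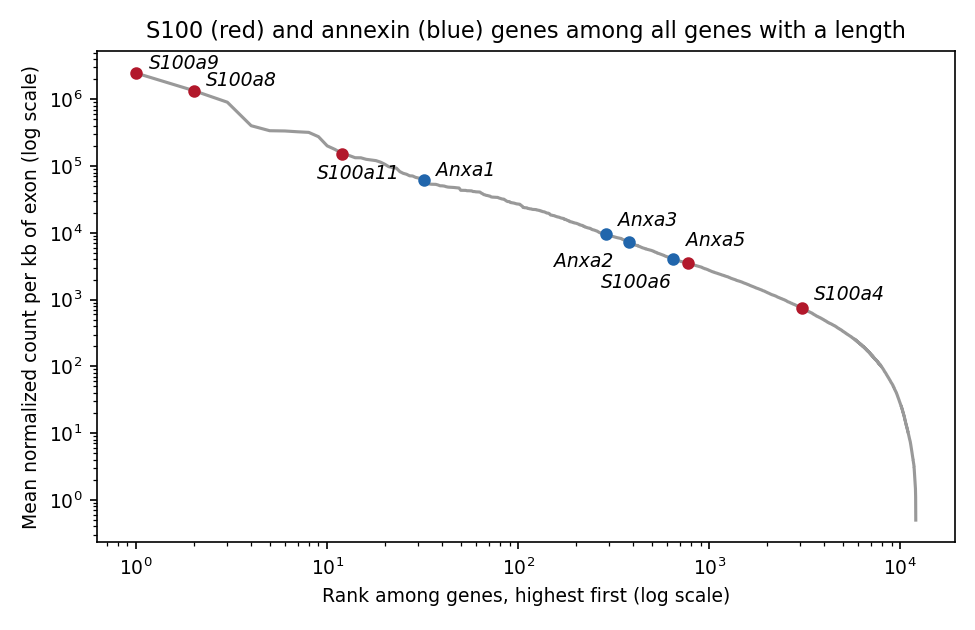
Mean normalized count per kilobase of exon (y axis, log scale) against rank (x axis, log scale) for the 12046 genes with an exon length, drawn as a grey line, with the 9 genes as points (S100 red, annexin blue). S100a9 and S100a8 occupy ranks 1 and 2, S100a11 and Anxa1 ranks 12 and 32, and S100a4 is the lowest of the 9 at rank 3040.

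S100a11 and Anxa1 came next. S100a11, whose product binds the tail of annexin A1, had a mean normalized count of 78344 and, with only 511 bases of exon, a level of 153315 per kilobase, the 12th highest. It lies at 93520488 to 93526287 on chromosome 3, and the RefSeq annotation holds a pseudogene of it, S100a11-ps, so that reads shared with that copy leave its count uncertain. Anxa1, on chromosome 19 from 20373428 to 20390944, had the larger count of the pair, 177178, spread over 2911 bases of exon from 8 annotated transcripts. Its level was 60865 per kilobase, rank 32, and the highest of the 9 annexin genes listed. S100a11 was 2.52 times Anxa1 per kilobase of exon and 1.56 times per kilobase of coding sequence. By counts without a length it was 0.442 times Anxa1, so the order of these 2 genes rests on dividing by length.

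Anxa3, Anxa2 and Anxa5 formed the middle of the order. Anxa3, an annexin associated with neutrophil granules, had a mean normalized count of 34505 and a level of 9472 per kilobase, rank 287. Anxa2, which with S100A10 forms a membrane-linked complex that binds plasminogen and its activator, had a count of 27376 and a level of 7337, rank 380. Anxa5, which binds exposed phosphatidylserine, had a count of 7247 and a level of 4078, rank 649. Anxa1 was 14.9 times Anxa5 per kilobase, the full range among the 4 annexin genes of the list, and 25.3 times by the longest transcript, 22.5 times by coding length and 24.4 times by mean normalized count. The step from Anxa3 to Anxa2 was 1.29 times and kept its direction with every length used, reaching 1.80 times by the longest transcript. Without replicate values such small steps cannot be set against an error.

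S100a6, encoding calcyclin, and S100a4, encoding a regulator of motility that binds non-muscle myosin, were the lowest of the 9. S100a6 had a mean normalized count of 4780 and a level of 3497 per kilobase, rank 775. Its level was 0.858 times that of Anxa5 by exon union but 1.46 times by the longest transcript and 2.36 times by coding length, so these neighbours have no fixed order. S100a4 had a count of 440 and a level of 753, rank 3040, which placed it alone outside the highest 10% of genes by this measure. A gene model on the same strand, Gm42674, shares 302 of its 584 exon bases (51.7%), and how such shared reads were counted is not given in the sources used here, so its level is uncertain. S100a9 was 3283 times S100a4 per kilobase and at least 2623 times with each other length used.

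**Figure D2:**
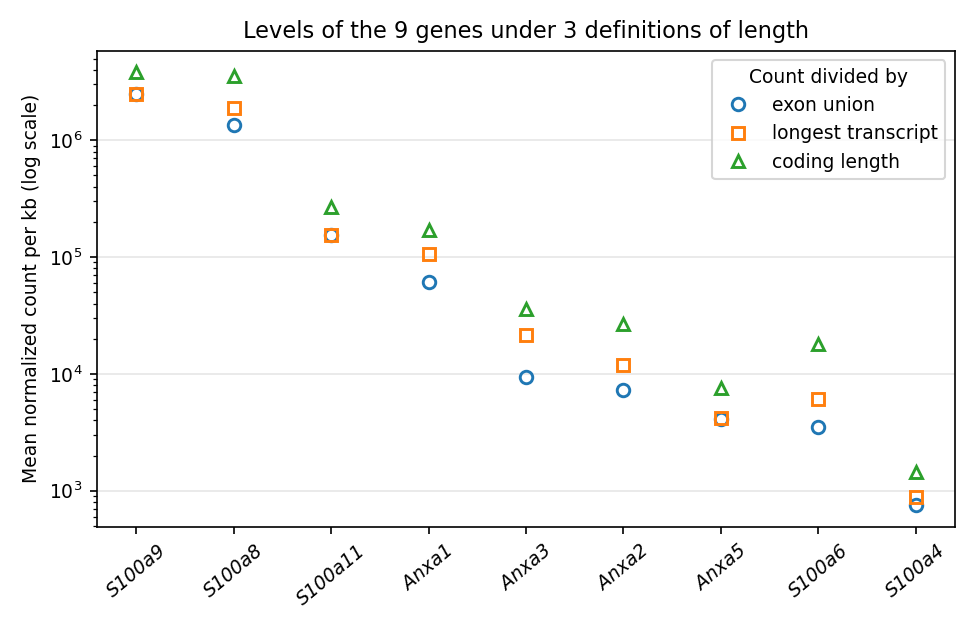
Mean normalized count per kilobase (y axis, log scale) of the 9 genes (x axis) with the count divided by the union of exons (circles), the longest annotated transcript (squares) or the coding length (triangles). S100a9 and S100a8 stay on top and S100a4 at the bottom, while Anxa5 and S100a6 change places.

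The other S100 and annexin genes in the tables show how far these levels range within the families. There were 6 other S100 genes, with levels from 2.25 per kilobase for S100a3 to 5912 for S100a1 and a median of 58.3. S100a3, with a mean normalized count of 12.7, was the lowest S100 gene with every length used, but its level depended on the length, at 4.05 by the longest transcript and 42.0 by coding length, where S100a1 stood at 6060 and 14549. S100a13, at 4464, stood near S100a1, and S100a2, S100a5 and S100a7a had mean normalized counts of 21.3, 21.2 and 26.3, ranking 12041, 12047 and 11776 of the 13091 genes. The 5 other annexin genes ranged from 101 for Anxa9 to 3415 for Anxa6, with Anxa11 at 2974, Anxa4 at 1373 and Anxa7 at 1228. S100a1 and S100a13 lay above S100a4 with every length used. They lay above S100a6 only by exon union, and below its 6105 by the longest transcript (6060 and 4464), below its 17904 by coding length (14549 and 6649) and below its mean normalized count. The median over all genes with a length was 229.

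**Figure D3:**
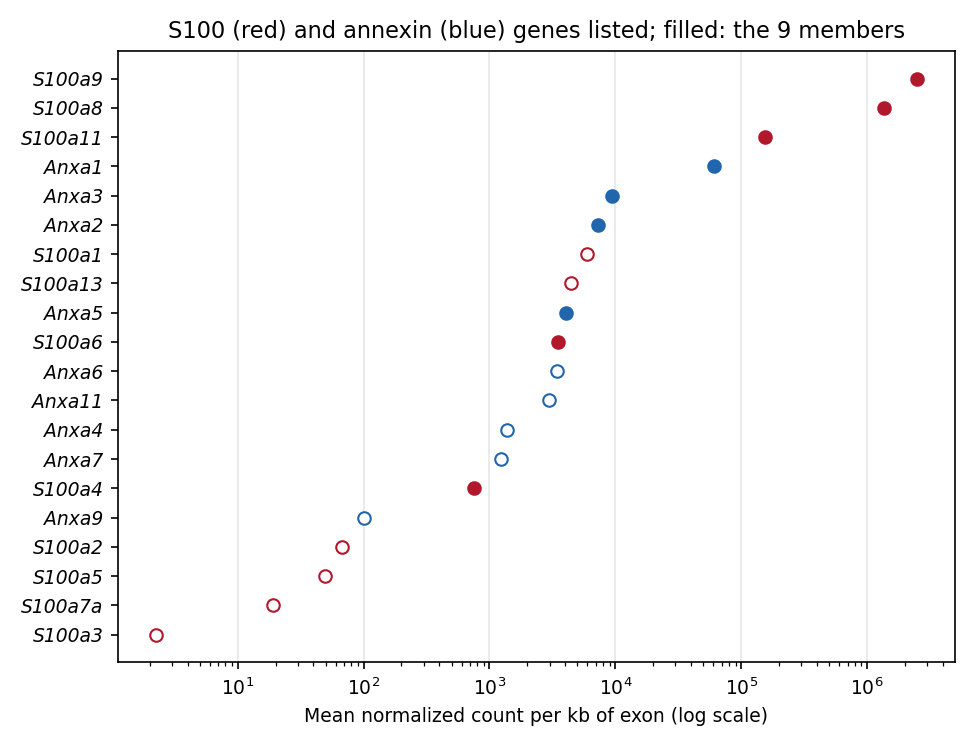
Mean normalized count per kilobase of exon (x axis, log scale) for the 20 S100 (red) and annexin (blue) genes in the tables, the 9 genes of the list filled and the 11 others open. The S100 genes run from 2.25 to 2472855, and the annexin genes from 101 to 60865.

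Most S100 genes share a stretch of chromosome 3, in which some neighbours had like levels and others did not. S100a1 and S100a13, at one end, stood at 5912 and 4464 per kilobase, and S100a8 and S100a9, at the other, were the highest of all genes. Counting from the start of S100a8, S100a7a starts at -15.0 kb and had a level of 19.1 per kilobase, against 1351838 for S100a8. S100a4 and S100a6 start at -65.2 and -56.1 kb and had levels of 753 and 3497 per kilobase, while S100a5, which lies between them, stood at 49.0. No test of level against position was run. S100a11 lies apart from this group, 2852 kb beyond S100a8. Among the annexin genes of the list, Anxa5 is also on chromosome 3 (36448923 to 36475894), while Anxa3 is on chromosome 5 (96793339 to 96845966) and Anxa2 on chromosome 9 (69453620 to 69491795).

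**Figure D4:**
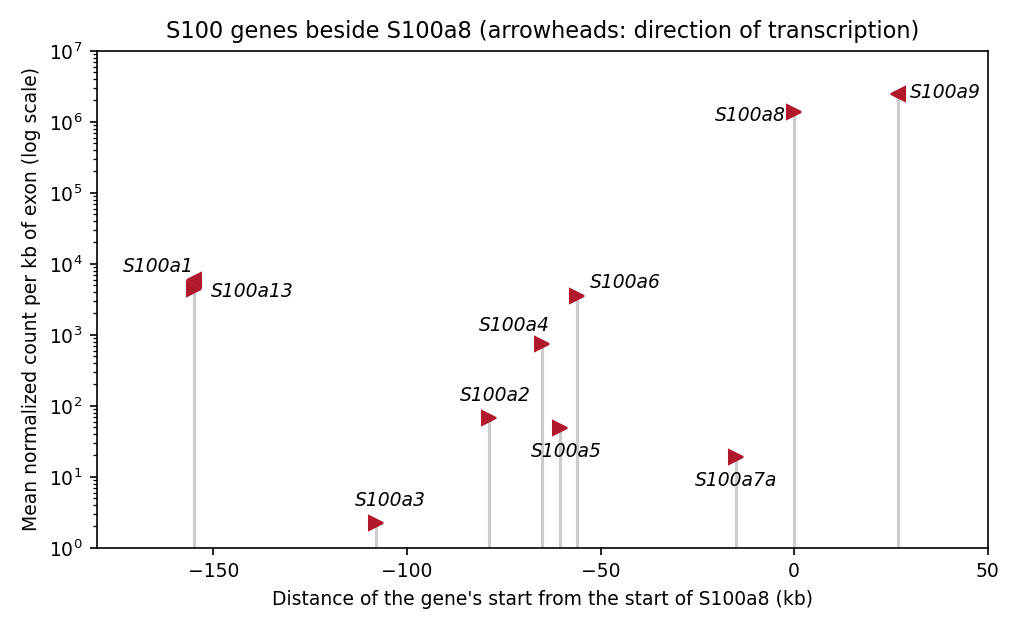
Mean normalized count per kilobase of exon (y axis, log scale) of the S100 genes near S100a8 against the distance of each gene's start from that of S100a8 in kilobases (x axis), with arrowheads for the direction of transcription. S100a8, at 1351838, and its upstream neighbour S100a7a, at 19.1, stand next to each other, and S100a11 lies outside the axis.

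Genes for binding partners were also present at varied levels. Of the formyl peptide receptors bound by annexin A1, Fpr1 and Fpr2 stood at 9713 and 8756 per kilobase and Fpr3 had no row. Among receptors of released calprotectin, 4 of 5 were listed, namely Tlr4 at 956 per kilobase, its co-receptor Ly96 at 404, Ager (the receptor RAGE) at 135 and Bsg (basigin) at 8821, while Cd36 had no row. Plaur, the urokinase receptor, was at 15496 per kilobase, and Ahnak, a large scaffold that binds the complex of annexin A2 and S100A10, was at 6.78, while Plat and Plg had no row. The 3 calmodulin genes, which encode the general calcium sensor of the cell, stood between 6494 and 13532 per kilobase of exon. They lay below S100a11 and Anxa1 with every length used, near Anxa3 and Anxa2 by exon union and above both by coding length, at 44409 to 51712.

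The cells' label was set beside the levels of marker genes, whose lists were chosen with earlier results of these data known. All 16 neutrophil markers were listed, each in the highest 10% of genes, with levels from 9713 to 906294 per kilobase and a median of 25041. S100a9 and S100a8 lay above every one of them per kilobase, although Ngp had a higher mean normalized count than S100a8. By exon union Anxa3, Anxa2, Anxa5, S100a6 and S100a4 lay below all 16. By the longest transcript Anxa3 (21633) and Anxa2 (12007) lay above the lowest of these markers, Fpr1 (9713), and by coding length Anxa3, Anxa2 and S100a6 did (35609, 26918 and 17904 against 11776), whereas Anxa5 and S100a4 stayed below Fpr1 with each length. Eosinophil granule genes were also high, with Prg2 at 320189 per kilobase (rank 8), Epx at 52165 and Prg3 at 15314, whereas the eosinophil receptors Ccr3 and Il5ra were at 20.1 and 36.7 and Siglecf at 1648. Of the monocyte and macrophage markers 6 of 10 were listed, with a median of 1838, and 3 of them were in the highest 10% of genes, Ly6c2 at 9664 (rank 279, next to Fpr1), Cd68 at 5333 and Adgre1 at 3111. By the longest transcript Ly6c2 (9881) lay above Fpr1, and by coding length it reached 67379, within the range of the neutrophil markers. Of the mast cell and basophil markers 6 of 7 were listed, with a median of 361, and 2 were in the highest 10%, Cpa3 at 17334 and Mcpt8 at 2808. The eosinophil markers had 3 of 6 in the highest 10%, and the remaining cell type lists had none. The neutrophil list includes Elane (22303), Mpo (35561) and Cebpe (15629), genes active in immature neutrophils, so it does not tell mature from immature cells. The progenitor list is short. Prtn3 (37050), a granule gene of precursors, and Rrm2 (2930), a replication gene, are not on it and were in the highest 10%. The medians were 236 for progenitor markers (4 of 5 listed), 548 for lymphocyte markers (2 of 6) and 616 for erythroid and platelet markers (3 of 6). What part other cell types have in the levels of the S100 and annexin genes was not tested, and in bulk RNA more cells of a type and more RNA per cell cannot be told apart.

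**Figure D5:**
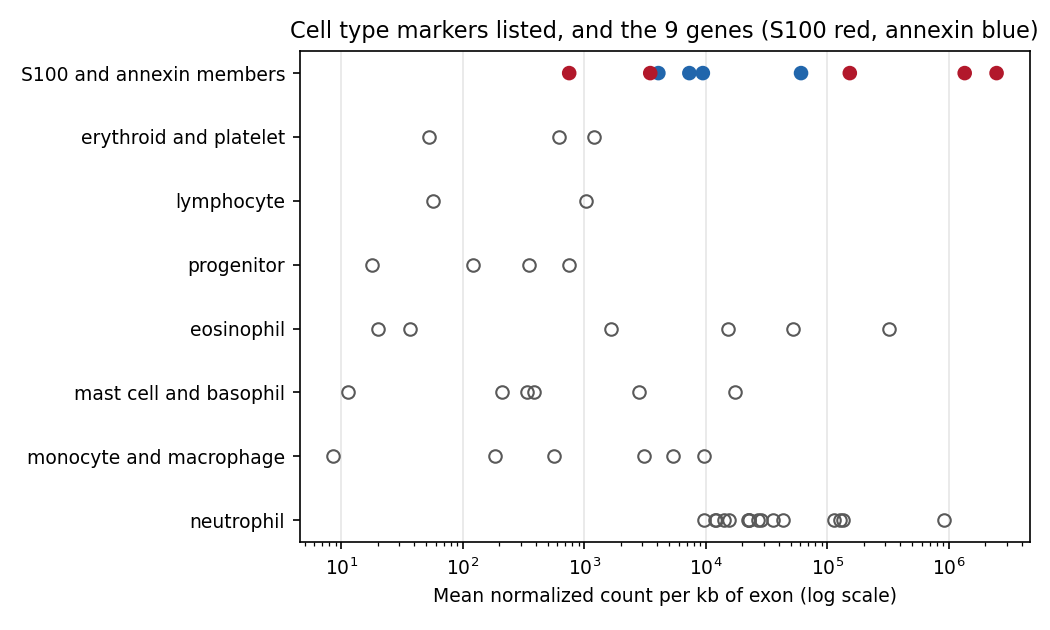
Mean normalized count per kilobase of exon (x axis, log scale) of the cell type markers found in the tables (open circles, 1 row per cell type) and of the 9 genes of the list (filled, S100 red, annexin blue). All neutrophil markers lie between 9713 and 906294, and some eosinophil, mast cell and basophil genes reach into the same range, with the monocyte marker Ly6c2 just below it by this length.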

How the data were processed

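RNA of 10 libraries in 4 groups, made with an mRNA library kit, was sequenced. Per the submitters' processing notes and the study's methods, the authors trimmed adapters and low-quality bases with Cutadapt 4.4, used STAR 2.7.10b for alignment to mm10 and for gene counts, and normalized the counts with DESeq2 1.26.0, with 4 covariates from RUVSeq in the model. The gene annotation and strand setting are not given in the sources used here. The signal in each of the 4 deposited tables is the mean normalized count per gene over libraries, not divided by length, and it was identical in all tables for the 13091 genes. The other 9 columns hold the authors' comparisons of 2 groups (fold changes, standard errors, statistics and p-values, with labels made from them) and were not used, so no genotype or LPS difference and no error is given, and the depth per library is unknown.

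Symbols were matched to GENCODE M21 on GRCm38, the assembly of mm10, by name with Python 3.11.15. An exon length was found for 12046 genes (92.0%) and a coding length for 11188. Levels were divided by the union of exons, and the longest transcript, the coding length, no length and genes with a mean of at least 100 were alternatives. Full lengths were used with no allowance for fragment size, so levels of short genes such as S100a11 (511 bases of exon) are less certain against those of long genes. Exon unions, ranks and motif matches were checked on simulated input. The genes named were the list, all other S100 and annexin genes in the tables, and fixed lists of partners and markers. The genes of the list and the lists were chosen with earlier results of these data known, and motifs and their windows after the files were seen. Promoter sequences are from RefSeq (GRCm38.p6), with 8 of 9 genes matched. Figures used matplotlib 3.10.9.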

Additional observations from a re-analysis of the deposited data

How the results depend on the processing

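Dividing by another length changed values more than order. By the longest transcript, the coding length and no length in turn, the ratio of S100a8 to S100a9 was 0.757, 0.923 and 0.727, and that of S100a11 to Anxa1 was 1.45, 1.56 and 0.442, the last reversed because Anxa1 is the longer gene. The share of all levels held by the 9 genes was 16.3%, 12.1% and 4.61% in place of 17.9%, and their median rank was 171, 272 and 216 in place of 287. Their median level was 21633 per kilobase by the longest transcript and 35609 by coding length in place of 9472. The number of the 9 genes in the highest 10% was 8, 8, 7 and 6 by exon union, longest transcript, coding length and no length. S100a4 was outside by every measure. Anxa5 was also outside by coding length (rank 1246) and by no length (rank 1480), and S100a6 by no length (rank 2224). S100a9, S100a8, Anxa3, Anxa2 and S100a4 kept their place under all 4, and the other 4 genes did not. Restricting the genes to the 9891 with a mean of at least 100 left the share at 17.9% and the median rank at 287. The planned ratio of S100a10 to Anxa2 could not be computed. Leaving out a replicate and pairing clones were not possible on pooled means, since no value per library was used. No paired analysis was possible because the means, taken as pooled over libraries, hold no value per clone, although the labels pair each clone's unstimulated and LPS libraries.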
